A study of Rattus norvegicus with 18 samples.

Results

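miR-320-3p (rno-miR-320-3p in the table) and miR-423-5p (rno-miR-423-5p) are 2 mature microRNAs (miRNAs) of rat liver that were chosen by name, for their low levels in obese rats against lean rats and for the GC content of their sequences. Both rows are among the 401 mature miRNAs of the deposited table, and both are among the 112 rows with enough counts to be tested. Small RNA was sequenced from 18 liver samples in 3 groups of 6 libraries, all labelled as 8 weeks old and as strain ZDF-Leprfa/Crl, a Zucker diabetic fatty (ZDF) rat. The lean group carries the phenotype label lean and no agent, the vehicle group is obese ZDF rats given vehicle, and the colesevelam group is obese ZDF rats given colesevelam. The labels give the lean rats the same strain name as the obese ones, so their Lepr genotype is known only through the phenotype label, and neither dose nor length of treatment is stated. Without a working leptin receptor, obese ZDF rats overeat and turn diabetic. Colesevelam is a polymer taken by mouth that holds bile acids back in the intestine.

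A miRNA is a short RNA that guides Argonaute proteins to messenger RNAs through its seed, bases 2 to 8 from the 5′ end. Most precursors are first cut by the nuclease Drosha. The precursor of miR-320 is an exception: its hairpin is transcribed directly, carries a 5′ cap and goes to Dicer without Drosha, and its 3p arm is the one that is loaded. miR-423 is a conventional hairpin whose 5p and 3p arms both accumulate. Both miRNAs are widely expressed and are found in blood plasma as well as in tissue. miR-320 has been studied in insulin-resistant fat cells, and miR-423-5p as a plasma marker of heart failure.

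The mature sequences of the deposited table are shown because GC content was part of the choice of the pair. They are written 5′ to 3′ with T for U and with the seed in capitals.
miR-320-3p: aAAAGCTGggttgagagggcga
miR-423-5p: tGAGGGGCagagagcgagactttt
miR-423-3p: aGCTCGGTctgaggcccctcagt
The third line is the other arm of the miR-423 precursor. No other row of the table shares any of these 3 seeds, so the pair does not belong to one seed family. No row is named miR-320-5p.

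The deposited table places miR-320-3p at chr15:55857840-55857861 on the plus strand. It places miR-423-5p at chr10:62796762-62796785 and miR-423-3p at chr10:62796798-62796820, also on the plus strand. Which rat genome build these positions refer to is not stated in the sources used here. RefSeq gives a second set: in its GRCr8 assembly, the Mir423 hairpin lies at chr10:62412272-62412350 on the minus strand, inside the span of the protein-coding gene Nsrp1 (chr10:62378937-62412601), which encodes a splicing regulator. Whether that is exon or intron was not looked up. Mir320a lies at chr15:51926088-51926169, with its lower coordinate 136 bases above the higher coordinate of Polr3d, whose strand the table used does not give and which encodes a subunit of RNA polymerase III. RefSeq's hairpin of Mir423 is shown with its mature arms in capitals, to show how the 5p and 3p arms face each other across the loop.
Mir423: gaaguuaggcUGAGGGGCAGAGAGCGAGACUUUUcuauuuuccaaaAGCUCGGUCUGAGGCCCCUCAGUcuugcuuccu

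By GC content the pair is moderately rich, not extreme. miR-320-3p has 12 G or C among 22 bases (54.5%) and miR-423-5p has 13 among 24 (54.2%), against a median of 45.5% over the 112 tested miRNAs and a range of 27.3% to 72.7%. By GC content they rank 18 and 24 from the top, and miR-423-3p, at 65.2%, ranks 4. Their G content stands further out than their GC content. miR-320-3p is 45.5% G, the highest share of the 112, and miR-423-5p is 41.7% G and ranks 4, against a median of 23.8%. Their C content is low, at 9.09% and 12.5%, ranks 101 and 97. With A counted too, miR-320-3p has the highest purine share of the 112 (77.3%) and miR-423-5p ranks 3 (66.7%). The split into G and C was looked at after the values were seen. In the next lines G and C are in capitals, beside the most GC-rich tested miRNA, miR-1247-5p, and the least, miR-340-5p, to show that most GC letters of the pair are G.
miR-320-3p: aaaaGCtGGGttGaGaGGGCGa
miR-423-5p: tGaGGGGCaGaGaGCGaGaCtttt
miR-1247-5p: aCCCGtCCCGttCGtCCCCGGa
miR-340-5p: ttataaaGCaatGaGaCtGatt

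The libraries differed in depth in step with the groups. Lean libraries held 110352 to 881452 miRNA counts, vehicle libraries 37910 to 147313 and colesevelam libraries 32936 to 122881. Levels are given as CPM, counts scaled by library size and TMM factor, so each is a level beside the remaining miRNAs of its library and not an amount of RNA. Hepatocyte miRNAs (miR-122-5p, miR-122-3p, miR-192-5p, miR-194-5p and miR-148a-3p) made up 22.8% to 45.6% of the counts in every library, and of the 5 only miR-122-3p was called, lower in colesevelam than in lean. In each group some libraries share a number in their labels, and nothing states that every library is a separate animal. The p-values therefore speak of library-to-library spread, part of which may be technical. In whole liver, fewer cells of a type and less RNA per cell cannot be told apart.

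miR-320-3p was counted 82 to 182 times in each lean library, 10 to 51 times in each vehicle library and 7 to 20 times in each colesevelam library. Its level in lean libraries ran from 235 CPM over a median of 565 to 1155 CPM. In vehicle libraries it ran from 199 over 376 to 601 CPM, and in colesevelam libraries from 111 over 246 to 357 CPM. The groups overlapped throughout: 3 of 6 lean libraries lay above every vehicle library and 4 of 6 above every colesevelam library. The mean ± SD (n = 6 per group) was 619 ± 367 CPM for lean, 377 ± 158 CPM for vehicle and 237 ± 95.2 CPM for colesevelam. By mean level miR-320-3p ranked 61 of the tested miRNAs in lean liver, 77 in vehicle and 88 in colesevelam liver.

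miR-423-5p was counted 73 to 187 times in each lean library, 4 to 56 times in each vehicle library and 4 to 11 times in each colesevelam library. Its level ran from 196 CPM over a median of 564 to 1334 CPM in lean libraries. In vehicle libraries it ran from 79.7 over 277 to 660 CPM, and in colesevelam libraries from 60.2 over 107 to 310 CPM. All colesevelam libraries but colesevelam 1 lay below every lean library, and 35 of the 36 pairs of a lean and a colesevelam library had the higher value in the lean one. The mean ± SD (n = 6 per group) was 633 ± 416 CPM for lean, 303 ± 201 CPM for vehicle and 137 ± 93.6 CPM for colesevelam, with ranks 60, 82 and 102. The colesevelam mean compares with 56.4 CPM for 3 counts, the limit that a count of 0 allows, on average in that group. At this depth the size of the colesevelam values is only roughly known, and the limit covers counting error only.

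**Figure D1:**
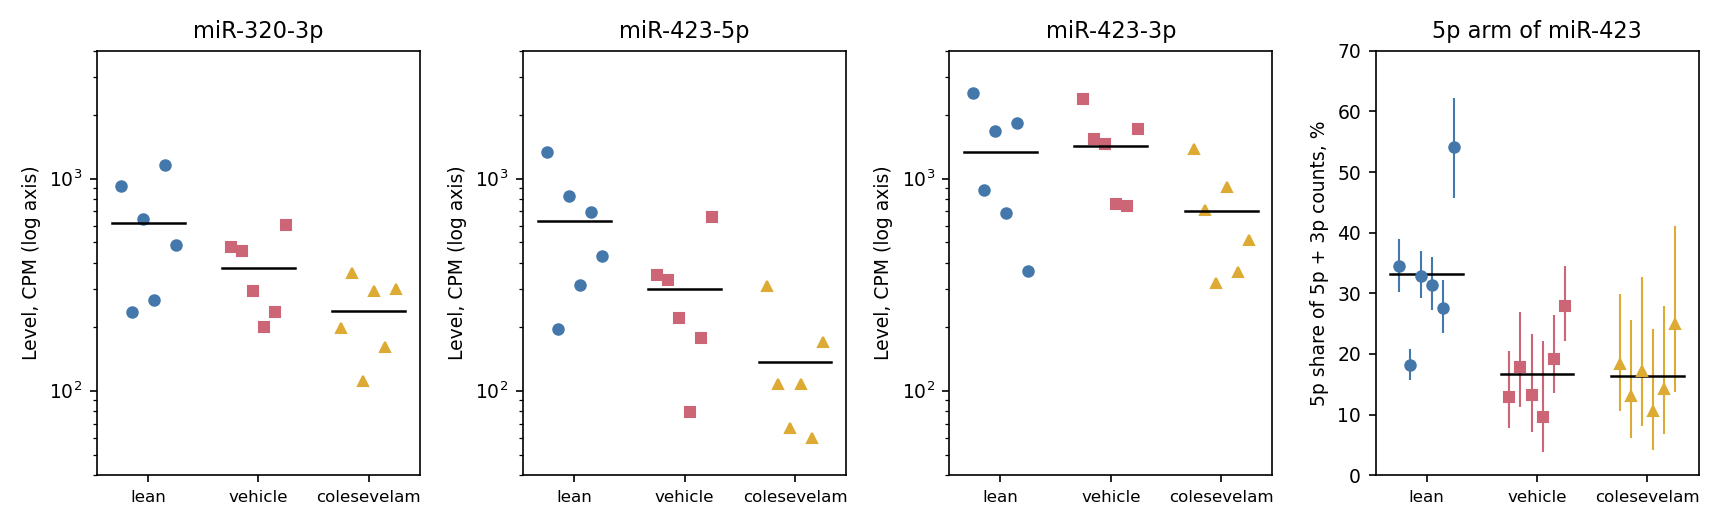
Level of miR-320-3p, miR-423-5p and miR-423-3p in CPM (log axes), and the share of 5p among all miR-423 counts in percent, for each of the 18 libraries. Points are libraries, black lines are group means (n = 6) and vertical lines are 95% Wilson intervals. The colesevelam libraries of miR-423-5p sit between 60.2 and 310 CPM, and the lean ones between 196 and 1334 CPM.

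Both members had their lowest mean level in colesevelam-treated liver, and vehicle lay between. Since they were chosen for lying below lean, the contrasts with lean are a description and carry no test. Vehicle lay below lean by a log2 fold change of −0.70 ± 0.39 (SE) for miR-320-3p, or 1.63-fold, and by −1.03 ± 0.47 for miR-423-5p, or 2.04-fold. Colesevelam lay below lean by −1.40 ± 0.41 for miR-320-3p, or 2.64-fold, and by −2.31 ± 0.52 for miR-423-5p, or 4.95-fold. Against lean, neither was called in vehicle, where 6.25% of the tested miRNAs were called and 2.68% were called lower. Both were called lower in colesevelam, where 21.4% were called and 9.82% were called lower, and nothing is read from that because the contrast chose them. In colesevelam, miR-320-3p was not called with upper-quartile factors (−1.37), with limma-voom (−1.09) or without lean 5 (−1.14). In vehicle, both were called with the GC slope as a covariate (16 of 112 rows called), and with a replicate block added (17). Both were also called with the G and C fits added after seeing the data (11 as an offset, 25 as covariates). With the authors' size factors both were called, but so were 110 of 112 rows. Nothing is read from these calls, because the contrast chose the pair. For neither member were the libraries of lean and an obese group fully apart. They were apart for 2.68% of the tested miRNAs in vehicle (0% lower) and for 8.04% in colesevelam (2.68% lower). Among all tested miRNAs ordered from the lowest change, miR-423-5p came 1 and miR-320-3p 3 in colesevelam against lean, and 4 and 9 in vehicle against lean. These contrasts share the lean libraries. In vehicle against lean 1 library moved the value by over 1.5 times: miR-320-3p was at −0.45 without lean 5. Summing libraries of a group that share a label number gave −0.36 for miR-320-3p and −0.67 for miR-423-5p, and limma-voom gave −0.45 for miR-320-3p.

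Between the obese groups the lower mean in colesevelam did not pass the test for either member. The level of miR-320-3p was 1.62-fold lower with colesevelam (log2 fold change −0.70 ± 0.43, edgeR quasi-likelihood adjusted p = 0.393, approximate 95% interval −1.53 to 0.14). That of miR-423-5p was 2.43-fold lower (−1.28 ± 0.54, edgeR adjusted p = 0.157, unadjusted p = 0.0281, approximate 95% interval −2.34 to −0.21). Of all tested miRNAs 10.7% were called in this comparison and 3.57% were called lower, and miR-423-5p had the lowest log2 fold change of the 112. For miR-320-3p 28 of the 36 pairs of libraries, and for miR-423-5p 30 of 36, had the lower value in the colesevelam library. The groups overlapped in both, while 5.36% of tested miRNAs had no overlap, with 1.79% lower. Without vehicle 6, the vehicle library with the highest level of both, the log2 fold change was −0.43 for miR-320-3p and −0.79 for miR-423-5p (edgeR adjusted p = 0.666 and 0.560).

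The scaling sets how large the gap to lean appears. In the authors' deposited table the log2 fold changes of vehicle against lean were −2.68 for miR-320-3p and −2.94 for miR-423-5p, where the median of its 183 rows was −2.41. For colesevelam against lean the authors' deposited table gave −3.74 and −4.67, with a median of −2.87 over 182 rows. For colesevelam against vehicle the authors' deposited table gave −1.06 for miR-320-3p (the authors' adjusted p = 0.162) and −1.73 for miR-423-5p (the authors' adjusted p = 0.0293), with a median of −0.36 over 127 rows. With the authors' size factors in edgeR, the median change over the 112 tested miRNAs was −2.38 for vehicle against lean. Relative to that median, miR-320-3p was at −0.29 and miR-423-5p at −0.55. Relative to a median of −2.76, they were at −0.97 and −1.88 for colesevelam against lean. For colesevelam against vehicle they were at −0.70 and −1.35 relative to −0.36, and neither was called (edgeR adjusted p = 0.424 and 0.201).

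The counts of both miRNAs varied much less among lean libraries than the library totals did. The highest lean total was 7.99 times the lowest, but the highest count was 2.22 times the lowest for miR-320-3p and 2.56 times for miR-423-5p. Vehicle libraries went the other way, with 5.1 and 14 times for the counts against 3.89 times for the totals. In colesevelam libraries the ratios were 2.86 and 2.75 against 3.73. The deepest lean libraries, lean 2 and lean 4, therefore had the lowest CPM of both. This is not particular to the pair. The miRNA let-7d-3p also had its lowest lean levels there, at 302 CPM in lean 2 and 189 CPM in lean 4. How many other miRNAs do so was not counted. Across the 6 lean libraries the log2 level and the log2 total were inversely related for miR-320-3p (Pearson r = −0.90, exact permutation p = 0.00972, adjusted p = 0.0247; Spearman rho = −0.89, exact permutation p = 0.0333, adjusted p = 0.0741). The relation was similar in size for miR-423-5p (r = −0.91, exact permutation p = 0.00833, adjusted p = 0.0247; rho = −0.83, exact permutation p = 0.0583, adjusted p = 0.106). Without lean 2 and lean 4 r was −0.55 and −0.65, so the relation rests in part on those libraries. Within vehicle libraries r was −0.29 and −0.11, and within colesevelam libraries −0.52 and −0.80 (smallest exact permutation p = 0.0667, n = 6). Over all 18 libraries with group means removed r was −0.67 and −0.63 (permutation p = 0.00839 and 0.0106, adjusted p = 0.0247 for each). Spearman's rho there was −0.61 and −0.60 (permutation p = 0.0197 and 0.0167, adjusted p = 0.0656 for each), and r was −0.55 and −0.53 without the 2 libraries farthest from the median total. Because lean libraries were the deeper ones, depth and group cannot be told apart between lean and obese libraries. With every library thinned to 32936 counts, colesevelam against lean was −1.23 for miR-320-3p and −2.21 for miR-423-5p, and vehicle against lean was −0.64 and −1.17.

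**Figure D2:**
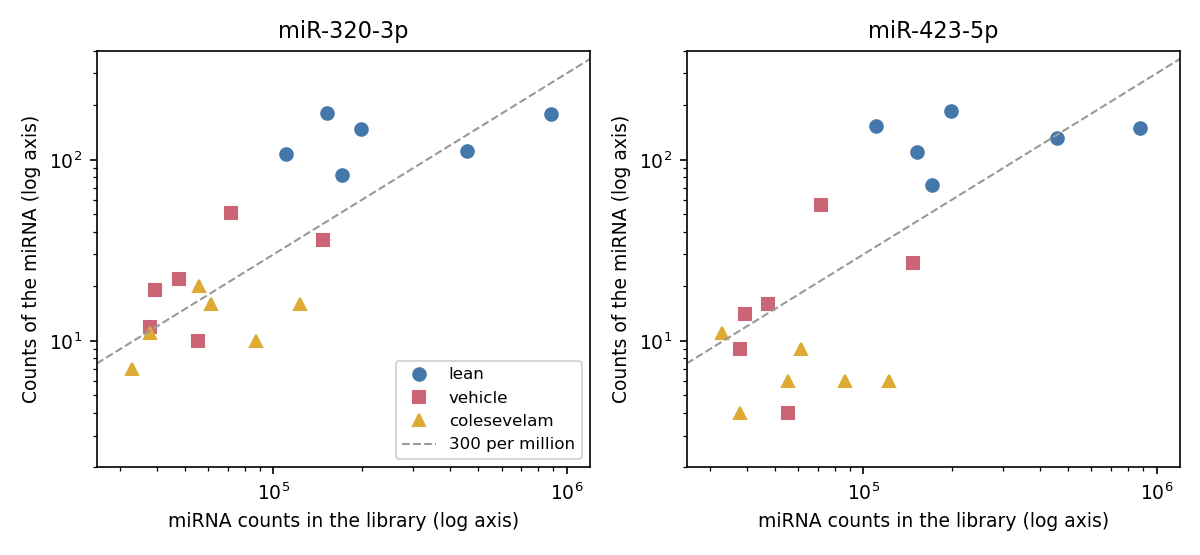
Counts of miR-320-3p (left) and miR-423-5p (right) against the miRNA counts of the library, both on log axes, 1 point per library; the dashed line marks a constant share. The lean libraries lie at 82 to 182 and 73 to 187 counts over the whole span of their totals, and the colesevelam libraries at 7 to 20 and 4 to 11.

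The libraries also differed in how much GC-rich miRNAs were represented, and the level of both members followed that difference within groups. For each library, log2 CPM was regressed on GC content over the 110 other tested miRNAs. The slope was negative in all 18 libraries, from −0.0999 to −0.0217 log2 units per percentage point of GC. The mean slope ± SD (n = 6 per group) was −0.0724 ± 0.0241 for lean, −0.0519 ± 0.0274 for vehicle and −0.0680 ± 0.0236 for colesevelam. No pair of groups differed past the threshold (two-sided exact permutation p = 0.190 between vehicle and lean, 0.290 between the obese groups and 0.747 between colesevelam and lean; smallest adjusted p = 0.435 over 3 tests).

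Over the 18 libraries with group means removed, libraries with a flatter slope had more of both members. The slope measures how GC-rich miRNAs stand in a library, so a GC-rich miRNA is likely to rise with it. The p-values below therefore do not set the pair apart. The same relation was not computed for other GC-rich miRNAs. Pearson's r was 0.81 for miR-320-3p (permutation p = 0.00026, adjusted p = 0.00260) and 0.83 for miR-423-5p (permutation p = 0.00014, adjusted p = 0.00260). Spearman's rho was 0.76 and 0.81 (permutation p = 0.00047 and 0.00033, adjusted p = 0.00347 for each). Adjustment was over 20 relations, and r stayed at 0.76 and 0.77 without the 2 libraries farthest from the median slope. Within groups of 6, r for miR-320-3p was 0.85 (lean), 0.91 (vehicle) and 0.70 (colesevelam). For miR-423-5p it was 0.83, 0.91 and 0.72. By exact permutation with adjustment only the vehicle values passed by Pearson's r (adjusted p = 0.0278 and 0.0247), and none passed by Spearman's rho (smallest adjusted p = 0.0741). In the colesevelam group the relation rests on colesevelam 3 and colesevelam 5, since r was −0.42 and 0.15 without them. The members also moved with each other: with group means removed r was 0.77 (permutation p = 0.00066, adjusted p = 0.00440) and rho 0.80 (permutation p = 0.00052, adjusted p = 0.00347), and r was 0.71 without the 2 farthest libraries. Within groups r between them was 0.89 (lean), 0.96 (vehicle) and 0.37 (colesevelam).

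**Figure D3:**
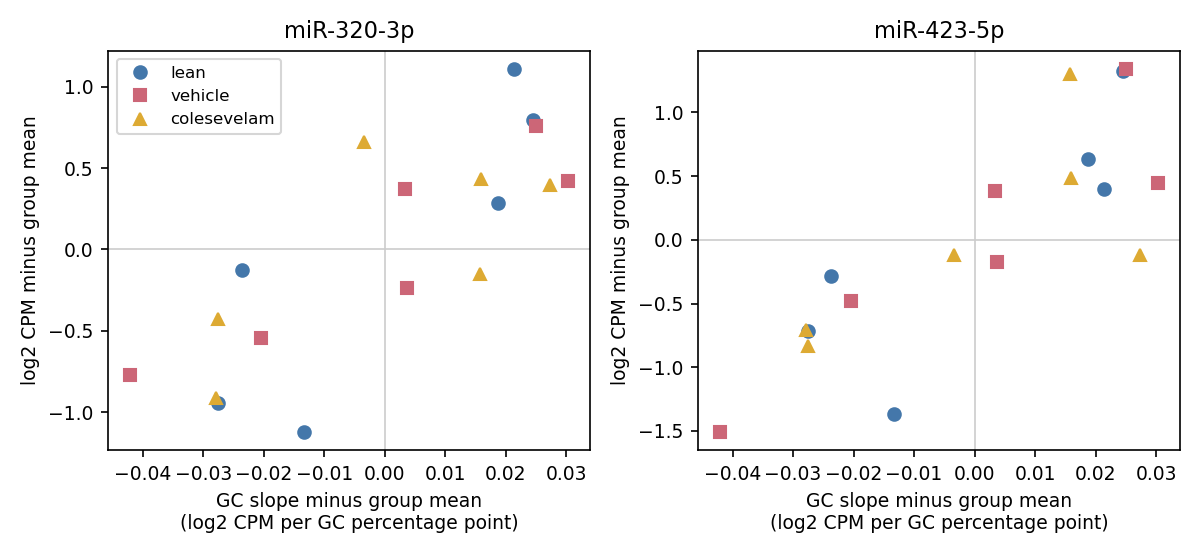
Level of miR-320-3p (left) and miR-423-5p (right) as log2 CPM minus the group mean, against the GC slope of the library minus its group mean. Points are the 18 libraries, marked by group, and they rise from lower left to upper right with r of 0.81 and 0.83.

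With GC content in the fit, colesevelam against lean changed little for either member, and the other comparisons changed more. With the GC slope of each library as a covariate, colesevelam against lean was −1.36 ± 0.27 for miR-320-3p and −2.31 ± 0.31 for miR-423-5p, close to the values without it. Vehicle against lean was larger, at −1.17 ± 0.27 for miR-320-3p and −1.72 ± 0.30 for miR-423-5p. Of the 112 rows 16 were then called, 8 of them lower, both members among them. Of the 22 other tested miRNAs with at least as much GC as miR-423-5p, 4 were called lower, against 0 without the covariate. In that list 3 were called higher with or without it. For colesevelam against lean, 6 of the list were called lower and 4 higher with the covariate, against 2 and 3 without. Over all 112 rows 22 were called lower there with the covariate, against 11 without. With the covariate, colesevelam against vehicle was smaller, at −0.19 ± 0.30 (edgeR adjusted p = 0.718) and −0.58 ± 0.35 (edgeR adjusted p = 0.318). When the GC trend of each library was removed as an offset instead, the values lay nearer to the uncorrected ones. Vehicle against lean was then −0.83 ± 0.33 and −1.16 ± 0.40, colesevelam against vehicle −0.55 ± 0.36 and −1.13 ± 0.47, and colesevelam against lean −1.38 ± 0.34 and −2.29 ± 0.45. With each GC correction both members lay below lean in both obese groups, and neither correction gave a call between the obese groups. The contrasts with lean chose the members, so nothing is read from them. The part of base content in the members' levels was not tested.

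**Figure D4:**
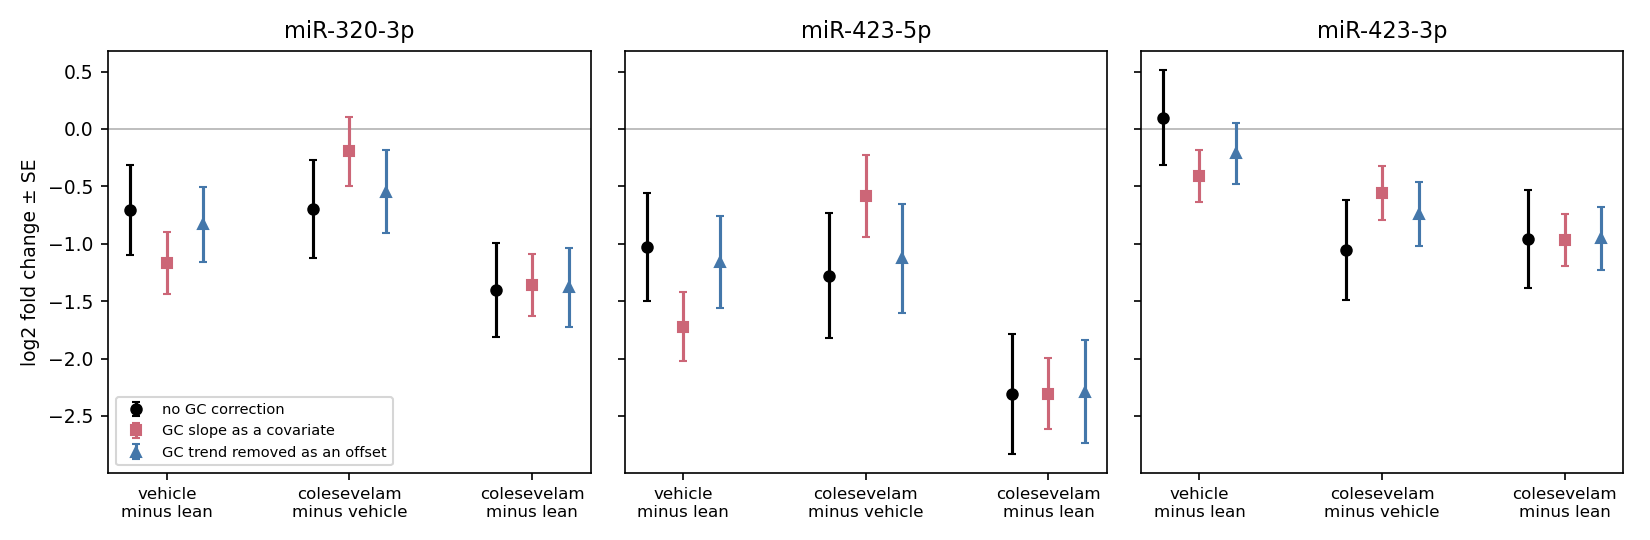
Log2 fold change ± SE of miR-320-3p, miR-423-5p and miR-423-3p in the 3 comparisons, without GC correction (circles), with the GC slope of the library as a covariate (squares) and with the GC trend removed as an offset (triangles). For miR-423-5p, vehicle minus lean is −1.03, −1.72 and −1.16, while colesevelam minus lean stays between −2.31 and −2.29.

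Against lean, GC-rich miRNAs as a list had medians near 0 under TMM scaling. Apart from the members, 22 tested miRNAs, miR-423-3p among them, had a GC content of at least 54.2%. Their median log2 fold change for vehicle against lean was 0.07, beside 0.01 over all 112 tested miRNAs, and 3 were higher and none lower past the threshold, against 4 higher and 3 lower over all. For colesevelam against lean the median was −0.11, beside −0.08 over all. Past the threshold 3 were higher (miR-99b-5p, miR-6215 and miR-21-3p) and 2 lower (miR-375-3p and miR-150-5p), against 13 higher and 11 lower over all. For colesevelam against vehicle the median was −0.35, beside −0.01 over all, and 15 of the 22 lay below 0, beside 58 of all 112. In the list, miR-99b-5p rose and the lymphocyte miRNA miR-150-5p fell past the threshold, against 8 higher and 4 lower over all. With the GC slope as a covariate the list medians were −0.37, −0.17 and 0.04 in the same order. Across the 110 other miRNAs, Spearman's rho of GC content with the log2 fold change was 0.31 for vehicle against lean, 0.10 for colesevelam against lean and −0.22 for colesevelam against vehicle. These correlations are over miRNAs of the same libraries and are a description only.

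The most GC-rich miRNAs were not called, whichever groups were compared. miR-1247-5p (72.7% GC) was at −0.50 ± 0.46 for vehicle against lean and −1.12 ± 0.49 for colesevelam against lean (edgeR adjusted p = 0.650 and 0.0977). miR-328a-3p (68.2% GC) was at −0.05 and −0.21, and miR-671 (66.7% GC) at −0.40 and −0.87. miR-339-3p and miR-339-5p, tied at 65.2% GC, were at −0.21 and 0.58 for vehicle against lean and at −0.90 and −0.14 for colesevelam against lean. For colesevelam against vehicle the 5, in the order named, were at −0.62, −0.16, −0.47, −0.69 and −0.72. The members were there at −0.70 (miR-320-3p) and −1.28 (miR-423-5p). For none of these 5 did edgeR with adjustment over all tested miRNAs pass the threshold in any comparison.

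**Figure D5:**
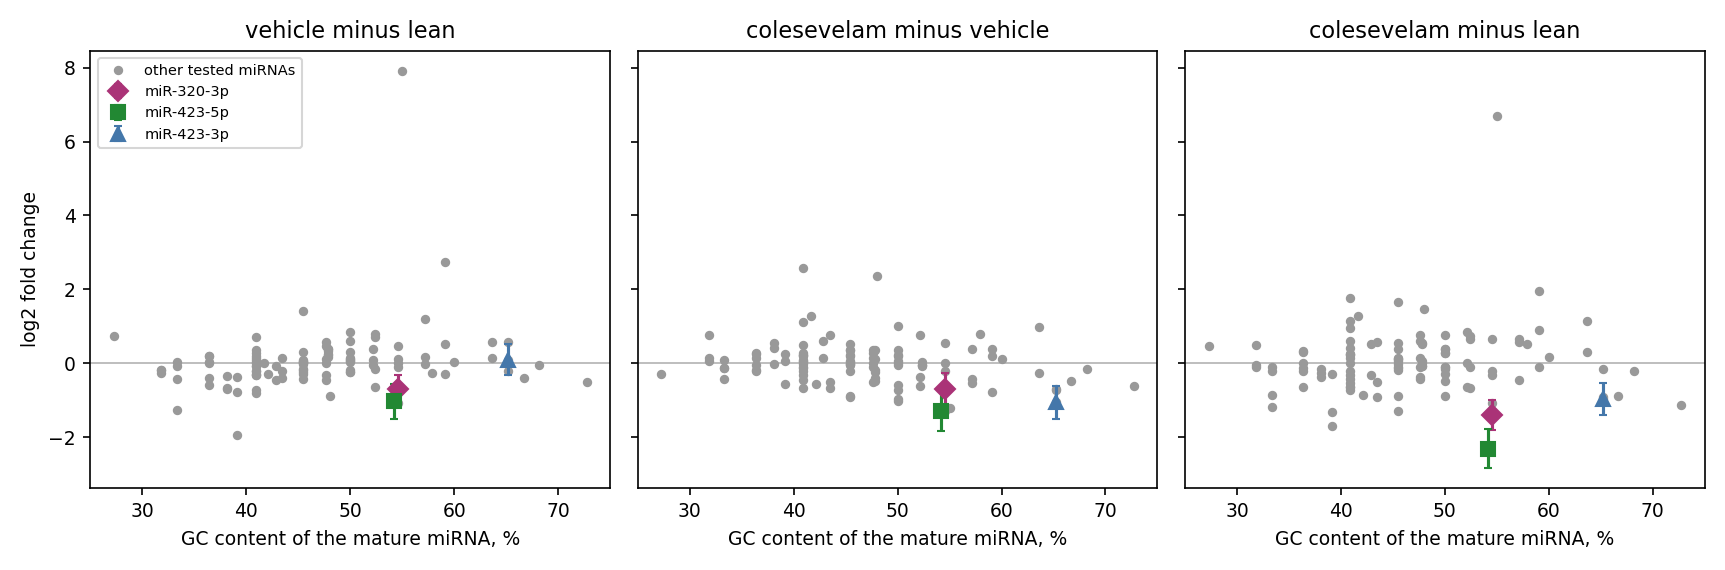
Log2 fold change of the 112 tested miRNAs against the GC content of the mature sequence in percent, for each comparison; bars on the 3 marked miRNAs are SE. Against lean, miR-423-5p and miR-320-3p lie at −1.03 and −0.70 for vehicle and at −2.31 and −1.40 for colesevelam. They were chosen for lying below lean, so nothing is read from those panels. For colesevelam minus vehicle they lie at −1.28 and −0.70.

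The other arm of miR-423 gives a comparison within one precursor. Each lean library held 62 to 674 counts of miR-423-3p, each vehicle library 38 to 145 and each colesevelam library 27 to 49. Its mean level ± SD (n = 6 per group) was 1331 ± 821 CPM for lean, 1428 ± 615 CPM for vehicle and 700.2 ± 401 CPM for colesevelam. Vehicle lay at a log2 fold change of 0.10 ± 0.42 against lean (edgeR adjusted p = 0.976), a sign that turned with the authors' size factors and with either GC correction (−2.18, −0.41 and −0.21). Colesevelam lay below vehicle by −1.06 ± 0.43 (edgeR adjusted p = 0.139) and below lean by −0.96 ± 0.43 (edgeR adjusted p = 0.106). The latter passed with the GC slope as a covariate (−0.97 ± 0.23, edgeR adjusted p = 0.00139) and with the GC trend as an offset (−0.95 ± 0.27, edgeR adjusted p = 0.0108).

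The 5p share of all miR-423 counts does not depend on scaling between libraries. It ran from 18.1% over a median of 32.2% to 54.1% in lean libraries, from 9.52% over 15.5% to 27.9% in vehicle libraries and from 10.5% over 15.7% to 25% in colesevelam libraries. Of the 6 lean libraries, 4 lay above every vehicle library and 5 above every colesevelam library; the deepest library, lean 2, was the lean library with the lowest share (95% Wilson interval 15.6% to 20.9%). The mean share ± SD (n = 6 per group) was 33.1 ± 11.8% for lean, 16.7 ± 6.48% for vehicle and 16.4 ± 5.07% for colesevelam. The contrast with lean is not tested, because the 5p arm was chosen for it. The obese groups differed by −0.34 percentage points (two-sided exact permutation p = 0.918). Single obese libraries rest on 35 to 201 counts of both arms together, and their intervals span several points; at 4 of 42 counts in vehicle 4, the 95% Wilson interval is 3.77% to 22.1%. The interval covers counting error only.

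By pattern over the 18 libraries, each member had the other as its closest miRNA among the 112, with r = 0.86 on log2 CPM. This r includes the difference from lean for which both were chosen. With group means removed it was 0.77, and miR-423-5p was no longer among the 5 miRNAs closest to miR-320-3p. For miR-320-3p the next were miR-1247-5p (0.82), let-7d-3p (0.82), miR-671 (0.78) and miR-30d-5p (0.72). For miR-423-5p they were its own other arm miR-423-3p (0.72), let-7d-3p (0.71), miR-671 (0.71) and miR-30d-5p (0.67). With group means removed let-7d-3p, the minor arm of a let-7 precursor, remained among the 5 closest to both (r = 0.89 and 0.80), and was the 1 of the 5 for miR-320-3p that remained, while 3 of the 5 for miR-423-5p did. miR-203b-3p (40.9% GC) was the least alike for both (r = −0.72 and −0.78). All these values share the libraries, their depth and their GC slopes.

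Markers of other cell types were summed as a share of counts beside the members. The leukocyte and platelet list (miR-223-3p, miR-142-3p, miR-142-5p, miR-150-5p and miR-155-5p, all 5 in the table) held 0.167% to 0.325% of the counts of a lean library, 0.0940% to 0.183% of a vehicle library and 0.0794% to 0.125% of a colesevelam library. Of its 2 tested miRNAs, miR-142-5p was lower in vehicle than in lean, miR-150-5p was lower in colesevelam than in vehicle, and both were lower in colesevelam than in lean. The erythroid list (3 of 4 in the table) held 0.0203% to 0.0508%, 0.0126% to 0.0353% and 0.00489% to 0.0366% in the same order, and its tested miRNA, miR-451-5p, was not called. The bile duct list of miR-200 family miRNAs held 0.0233% to 0.0549%, 0.00762% to 0.0185% and 0.00652% to 0.0213%, and miR-200b-3p was lower in both obese groups than in lean. The stromal list held 3.63% to 4.43%, 3.56% to 5.23% and 3.21% to 5.06%, and the endothelial list 0.614% to 1.22%, 0.406% to 0.813% and 0.497% to 1.02%. Of their 3 and 2 tested miRNAs, none was called in any comparison. No listed miRNA present in the table was at 0 over all libraries. The part of these cells in the members' levels was not tested.

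Of other miRNAs made without Drosha, few counts were found. miR-484, the other capped precursor on the list, had 25 counts over all lean, 2 over all vehicle and 3 over all colesevelam libraries, and miR-702-3p, from a mirtron, had 6, 1 and 0. Neither could be tested, and of the 7 names on that list 3 were in the table, with miR-320-3p the one tested.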

How the data were processed

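The deposited table holds the authors' estimated counts of 401 mature miRNAs in 18 libraries, unscaled; 297 of 7218 values were not whole. The submitters' processing notes name Bowtie (1.1.2) and DESeq2 (1.18.1); the trimming, build, annotation and counter behind the values were not stated in any source used here. Per the labels' protocols a Norgen kit gave the total RNA, and an Illumina TruSeq kit for RNA gave the libraries. Per the file headers the table also holds the authors' DESeq2 log2 fold changes, p-values and mean signal (mean scaled counts), from which their size factors were recovered (1 mean value was not given back by them).

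Here counts were rounded, rows were kept by filterByExpr (minimum count 10, total 15; 112 of 401 rows, 99.5% of counts), scaled by TMM and tested in one fit of all 18 libraries with edgeR 4.0.16 in R 4.3.3 (glmQLFTest, robust fit), with Benjamini-Hochberg adjustment over all rows at 0.05. Log2 CPM used a prior count of 2. Values per library were compared by two-sided exact permutation (924 splits, smallest possible p 0.00216); correlations used 100000 permutations within groups, or all 720 orders of 6 libraries, adjusted over 20 relations. The scripts were tested on simulated data. The members and lists were chosen with earlier results of these data known. Named miRNAs were the members, their other arms, rows of the same seed, the 5 most GC-rich tested rows (with a tie), the 5 most alike to each member, and list members. Replicate numbers do not pair samples: 6 of 18 same-numbered pairs correlated above 0.1.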

Additional observations from a re-analysis of the deposited data

How the results depend on the processing

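miR-320-3p and miR-423-5p kept their direction in all 3 comparisons under all 18 alternatives and every fit without 1 library, and neither was called between the obese groups in any of them (edgeR, DESeq2 or limma-voom adjusted p 0.0623 to 0.814). Without single libraries, vehicle against lean ranged from −0.96 to −0.45 for miR-320-3p and from −1.51 to −0.72 for miR-423-5p, colesevelam against vehicle from −0.82 to −0.43 and from −1.60 to −0.79, and colesevelam against lean from −1.57 to −1.14 and from −2.61 to −1.99. With the authors' size factors vehicle against lean was −2.67 and −2.93 and colesevelam against lean −3.72 and −4.64; miR-423-3p was −2.18 and −3.61, the medians of the GC-rich list were −2.21 and −2.72, and the rows called were 110 (vehicle against lean), 2 (colesevelam against vehicle) and 109 (colesevelam against lean), against 7, 12 and 24.

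With the GC slope as a covariate 16, 24 and 41 rows were called, the GC-rich list median for vehicle against lean was −0.37, and miR-423-3p was at −0.41 for vehicle against lean and −0.97 for colesevelam against lean. A replicate block together with the GC slope gave 17, 27 and 44 calls and miR-423-3p at −0.34, −0.62 and −0.96; the GC trend as an offset gave 37 calls for colesevelam against lean and miR-423-3p at −0.21 and −0.95. The replicate block alone gave −0.63 for miR-320-3p and −1.26 for miR-423-5p between the obese groups and 7 calls there, and no call on the members changed. Same-numbered libraries had a median residual correlation of −0.12, and for 5 of 18 libraries the closest library of another group had their number. Between the obese groups 6 rows were called with upper-quartile factors, 7 without a filter, 7 with label numbers summed and 7 to 12 without single libraries (7 without vehicle 6). Without a filter the GC-rich list median for colesevelam against lean was −0.67. miR-423-3p had no call in the main fit of all 18 libraries. Between the obese groups it was called in a fit of only those (−1.11), with the block and GC slope, and with the G and C slopes. The authors' deposited table gave it −1.43 there (the authors' adjusted p = 0.00825). For vehicle against lean it was called with the authors' size factors and with the G and C slopes. For colesevelam against lean it was called with those 2 settings, in every GC fit above, with the G and C trends as an offset, with miR-192-5p left out (−1.08) and without lean 6 (−1.16). Without single libraries it ranged from −0.10 to 0.34 for vehicle against lean and from −1.19 to −0.70 for colesevelam against lean. The difference of GC slopes of colesevelam against lean then ranged from −0.00111 to 0.00995, and that of the 5p share between the obese groups from −2.07 to 1.88 points. The fits with separate G and C trends were added after seeing the data. With the trends as an offset, 11 rows were called for vehicle against lean, and miR-423-3p was at −0.25 for vehicle against lean and −0.99 for colesevelam against lean. With the slopes as covariates, 25 rows were called for vehicle against lean and 25 between the obese groups, and miR-423-3p was at −0.68 for vehicle against lean, −0.64 between the obese groups and −1.32 for colesevelam against lean. Of the calls between the obese groups 8 of 12 were higher, against 6 of 6 with upper-quartile factors, 7 of 14 with library totals and 2 of 2 with the authors' size factors. The cause of these shifts was not tested. Obese libraries held 4 to 56 counts of miR-423-5p, and the part of depth in the missing calls between them was not tested. With all libraries thinned to 32936 counts both members were called for colesevelam against lean. Of the 87 rows tested then, 27 were called, 12 of them lower. Nothing is read from the call on the members, because the contrast chose them.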

Other observations

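Since G, not C, makes up most of the GC content of both members, the GC trend was also split into a G and a C trend per library, an alternative chosen after seeing the data. The slope of level on G content ran from −0.120 to −0.0226 log2 units per percentage point in lean, from −0.0559 to 0.0103 in vehicle and from −0.0684 to −0.00363 in colesevelam libraries. With both trends removed as an offset, vehicle against lean was −1.31 ± 0.34 for miR-320-3p and −1.50 ± 0.38 for miR-423-5p. Colesevelam against lean was then −1.89 ± 0.36 and −2.68 ± 0.42, and colesevelam against vehicle −0.58 ± 0.37 and −1.18 ± 0.44 (edgeR adjusted p = 0.359 and 0.0730). With both slopes as covariates the same comparisons gave −1.10 and −1.70, −1.24 and −2.28, and −0.14 and −0.58.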
